A study of Mus musculus with 32 samples.

Results

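The genes described here carry the insulin signal into the liver cell and govern how that cell stores and releases glucose: Insr, Irs1, Irs2, Pik3r1, Akt2, Slc2a2, Gys2 and Pygl. They were chosen by name, 8 genes of the 16593 named on the array used for females, and 6 of the 15967 named on the array used for males, where the probe annotation lists neither Irs2 nor Gys2. Their probes were taken by gene symbol from that annotation, 14 probes in females and 9 in males.

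Insulin binds the receptor encoded by Insr, which phosphorylates the docking proteins encoded by Irs1 and Irs2. These recruit phosphoinositide 3-kinase through its regulatory subunit, encoded by Pik3r1, and the kinase encoded by Akt2 passes the signal on to glycogen synthesis, lipid synthesis and the forkhead factors that drive fasting genes. Irs2 is itself a fasting gene in liver: its transcription is known to be restrained by insulin through those forkhead factors. Slc2a2 encodes the glucose carrier GLUT2 of the hepatocyte membrane, Gys2 the liver glycogen synthase and Pygl the liver glycogen phosphorylase.

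RNA was taken from liver of C57bl/6J OlaHsd mice aged 20 weeks. Mothers had been fed either the control diet, labelled 18%, or a low-protein diet, labelled 9% and holding 90 g casein per kg, while pregnant. From the age of 6 weeks the offspring ate a control diet or a high-fat diet, labelled 36% SF, for 14 weeks. Each sex had 4 groups of 4 arrays (control or high-fat diet after mothers on 18% or 9%), described as biological replicates; no group carried a genetic change, and litter is not in the labels, so p-values may be too small where a group holds littermates. The array version differed between females and males, so values were scaled and tested within each sex, and sex and array version cannot be told apart. The question named by the series title is how protein restriction of the mother programmes the metabolism of daughters and sons.

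On each array 43.7% to 47.3% of probes were detected above background at a detection p under 0.05. Of 18 hepatocyte markers 17 were detected on all 16 female arrays, and of 15 in males 14 were. Mean raw intensity was 423 ± 22.0 and 422 ± 43.9 units (SD, n = 4) in females on the control diet whose mothers had 18% and 9%, and 385 ± 44.5 and 343 ± 48.9 units in those on the high-fat diet. The 4 dimmest female arrays were all high-fat, 3 of them after mothers on 9%. Their part in the female results was examined by leaving them out and by a fit with raw intensity as a covariate. Sizes under both are given for Irs2, for Slc2a2 at its brightest probe and at the probe that passed. They are also given for further pathway genes called on average over the mothers' diets. For Gys2, and for further pathway genes called after mothers on 9%, the size is given only without these arrays. For the other members neither is given.

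The promoters of the 2 docking-protein genes are shown because Irs2 passed the test in females and Irs1, the other docking-protein gene, is the natural companion to read beside it; the genes were not tested against each other. RefSeq promoter windows on GRCm38.p6, from 250 bases before to 50 bases after the start site, were at hand for 6 of the 8 genes, 10 windows in all; Insr and Gys2 had none. Capitals mark 2 motifs, the E-box CACGTG and the core of the insulin response element TGTTTTG. Irs2 lies on the minus strand at chr8:11008880-11009179 and Irs1 on the minus strand at chr1:82291390-82291689, both written 5' to 3' on the strand of the gene.
Irs2: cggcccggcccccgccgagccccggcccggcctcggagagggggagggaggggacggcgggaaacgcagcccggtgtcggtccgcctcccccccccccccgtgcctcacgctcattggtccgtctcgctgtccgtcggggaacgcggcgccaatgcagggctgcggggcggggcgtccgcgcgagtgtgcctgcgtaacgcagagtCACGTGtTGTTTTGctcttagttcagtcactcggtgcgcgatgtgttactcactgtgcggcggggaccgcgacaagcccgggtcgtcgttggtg
Irs1: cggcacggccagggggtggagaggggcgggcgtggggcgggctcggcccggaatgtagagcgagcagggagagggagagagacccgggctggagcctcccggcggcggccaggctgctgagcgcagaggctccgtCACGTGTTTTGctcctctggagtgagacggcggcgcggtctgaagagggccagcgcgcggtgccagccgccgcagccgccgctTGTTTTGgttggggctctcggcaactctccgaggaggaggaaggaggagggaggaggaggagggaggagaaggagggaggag
In Irs2 the E-box began 44 bases before the start site, and TGTTTTG began 37 bases before it. In Irs1 the E-box began 115 bases before the start site, with TGTTTTG at 111 bases, overlapping it by 2 letters, and again at 32 bases. The forkhead consensus TGTTTAC was in neither window. Searched on both strands of 32544 promoters, CACGTG was in 7.17%, TGTTTTG in 6.32%, TGTTTAC in 3.66%, and CACGTG together with TGTTTTG in 0.412%. The motifs were picked after these sequences had been read, and a match is a description of the letters only.

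How much of the pathway could be measured differed between the arrays. A gene was tested where a probe was detected on at least 4 of the 16 arrays of the sex, at its brightest probe. In females 11 of 14 probes and 7 of 8 genes passed, and in males 4 of 9 probes and 3 of the 6 genes present. The receptor gene Insr was not well above background on any array of either sex, at raw intensities of -6.67 to 6.79 units in females, so its level was not measured. In males Irs1 and Pik3r1 were likewise detected on 0 of 16 arrays. The same Irs1 probe, ILMN_1248206, was detected on 16 of 16 female arrays and 0 of 16 male arrays, and the same Akt2 probe, ILMN_2655895, on 14 and 0; sex and array version cannot be told apart in these counts.

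Irs2, the docking protein whose gene insulin represses, was the 1 member that passed the test, and it was lower in high-fat females. Averaged over the mothers' diets, its log2 intensity fell by 0.87 ± 0.21 (SE; 95% interval -1.31 to -0.42), so that the high-fat level was 0.547 of the control level (limma, adjusted p = 0.0199 over 9446 features). That is 1 of 7 measured members, against 8.78% of all features called in this comparison and 4.15% called lower. Normalised log2 intensities at its single probe, ILMN_3144164, were 8.94, 9.91, 9.54 and 9.70 in control females of mothers on 18%, and 8.97, 8.84, 8.08 and 8.97 in the high-fat females of such mothers. After mothers on 9% they were 9.13, 10.46, 9.83 and 9.60 on the control diet, and 9.55, 8.52, 8.36 and 8.86 on the high-fat diet. The diets overlapped: 5 of 8 high-fat arrays lay below every control array, and 5 of 8 control arrays lay above every high-fat array. The overlap held 3 control arrays (8.94, 9.13 and 9.54) and 3 high-fat arrays (8.97, 8.97 and 9.55).

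The difference had the same sign after both maternal diets. It was -0.81 ± 0.30 after mothers on 18% and -0.93 ± 0.30 after mothers on 9%, and neither passed by itself (adjusted p = 0.306 and 0.0868; 0.0847% and 4.35% of all features passed). The difference between these effects was -0.12 ± 0.42 (95% interval -1.01 to 0.77, adjusted p = 0.972), an interval that leaves room for effects unlike by up to 1.01. Mothers on 9% against 18% shifted Irs2 by 0.23 ± 0.30 on the control diet and 0.11 ± 0.30 on the high-fat diet, both smaller than their interval. Leaving out each array in turn kept the averaged call in 16 of 16 fits, with values of -0.99 to -0.75. With raw intensity as a covariate the value was -0.83 (adjusted p = 0.227), and without the 4 dimmest arrays, which leaves 1 high-fat array after mothers on 9%, it was -0.89 (adjusted p = 0.171): the size stayed and the call was lost. Within groups, Irs2 and raw intensity correlated at r = 0.06 over 16 arrays. In bulk liver, less RNA per cell and fewer cells that hold the RNA cannot be told apart.

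**Figure D1:**
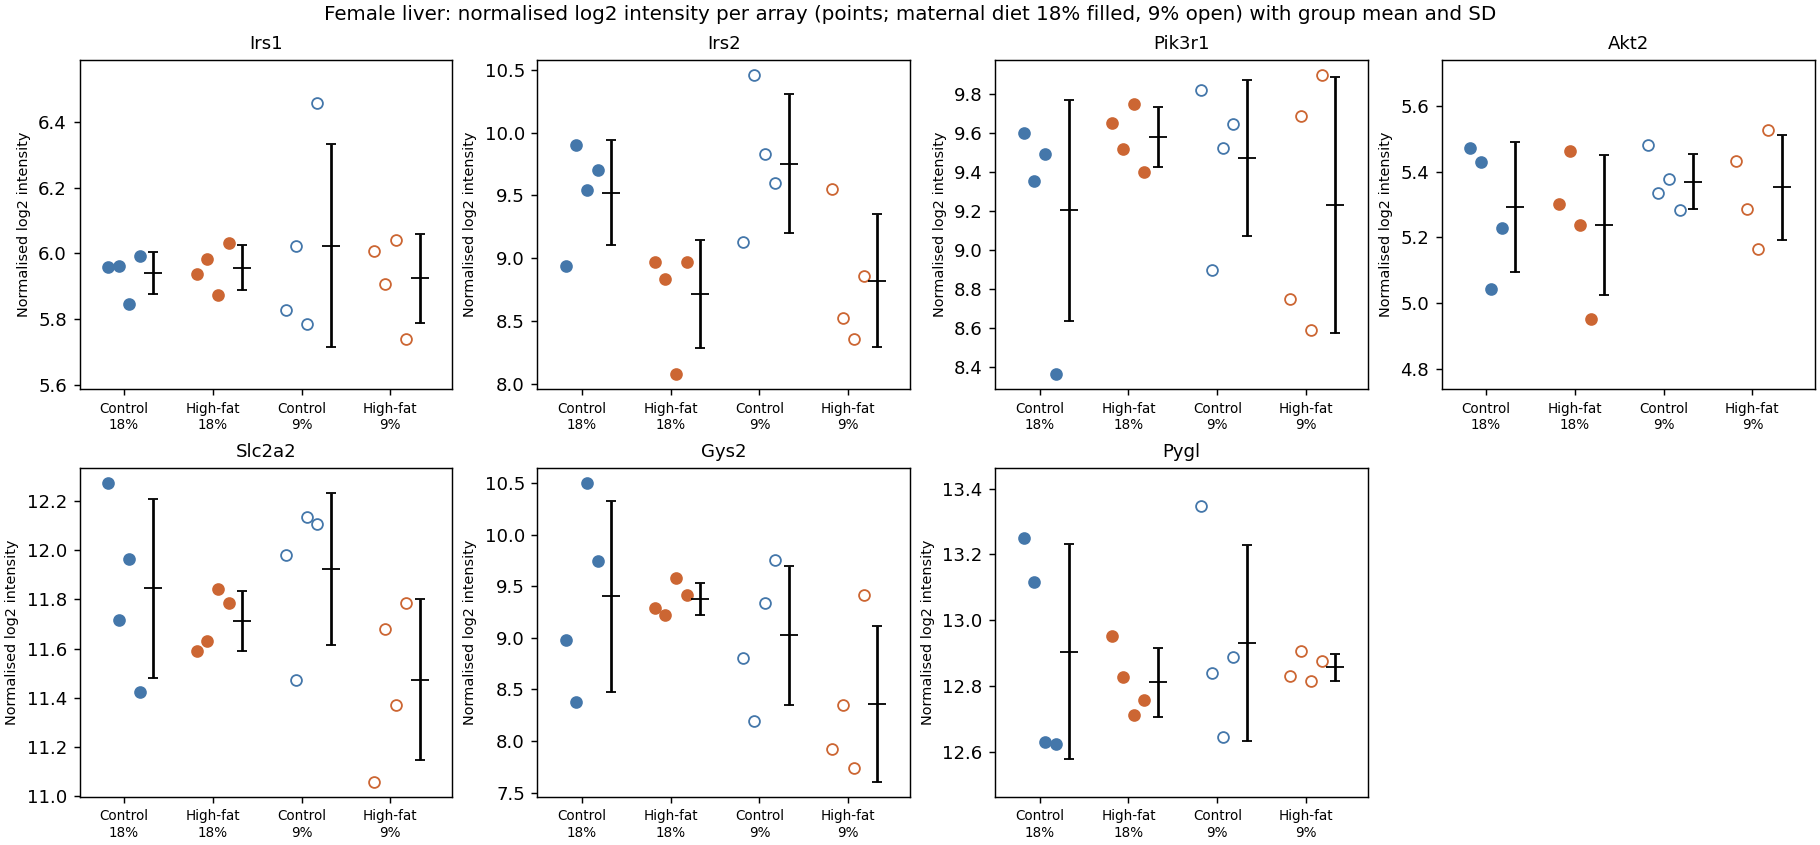
Normalised log2 intensity (vertical axes, each on its own scale) of the 7 members tested in females, by offspring and maternal diet (horizontal axes). Points are arrays, and the bars give the group mean and SD (n = 4). High-fat arrays of Irs2 lie mostly below the control arrays after both maternal diets, while the diets overlap widely in Irs1 and Akt2.

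Irs1, the other docking protein, did not pass. Its group means were 5.94 ± 0.06, 5.96 ± 0.07, 6.02 ± 0.31 and 5.92 ± 0.14 (SD, n = 4; control and high-fat after 18%, then after 9%), and the averaged high-fat effect was -0.04 ± 0.09 (95% interval -0.24 to 0.15, adjusted p = 0.827). The upper end of the spread after mothers on 9% came from 1 control array at 6.46. The probe was dim, at 31.7 to 63.3 raw units, where changes are compressed.

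Pik3r1, the regulatory subunit that docks on the Irs proteins, varied within groups more than between them. Its log2 intensities at the tested probe were 9.60, 9.35, 9.49 and 8.36 on the control diet and 9.65, 9.52, 9.75 and 9.40 on the high-fat diet after mothers on 18%. After mothers on 9% they were 9.82, 8.90, 9.52 and 9.64 on the control diet and 8.75, 9.69, 8.59 and 9.90 on the high-fat diet. The last group split into 2 arrays near the control level and 2 about 1 log2 unit lower, and 1 control array after mothers on 18% was lower still. The high-fat effect was 0.38 ± 0.30 after mothers on 18% and -0.24 ± 0.30 after mothers on 9%, and their difference of -0.62 ± 0.42 did not pass (adjusted p = 0.885). A second probe gave 0.36, -0.30 and -0.66 for the same values, and the remaining probe was detected on 0 of 16 arrays.

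Akt2, the kinase that acts on glycogen synthesis and forkhead factors, differed by -0.04 ± 0.09 between the diets in females (95% interval -0.23 to 0.16). Its 4 group means lay between 5.24 and 5.37 log2 units, at a probe of 13.9 to 33.5 raw units that was detected on 14 of 16 arrays.

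Slc2a2, the glucose carrier, was lower in high-fat females of mothers on 9%, and whether it passed depended on the probe. At the brightest probe, ILMN_2861259, the log2 intensities were 11.98, 11.47, 12.14 and 12.11 on the control diet and 11.06, 11.68, 11.37 and 11.78 on the high-fat diet after these mothers. After mothers on 18% they were 12.28, 11.72, 11.97 and 11.42 against 11.59, 11.63, 11.84 and 11.78. The high-fat arrays of the 9% group reach down to 11.06, and both pairs of groups overlap.

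The effect at that probe was -0.45 ± 0.19 after mothers on 9% (adjusted p = 0.169) and -0.13 ± 0.19 after mothers on 18% (adjusted p = 0.821). The other 2 probes, fitted with every probe as a feature, gave larger differences after mothers on 9%, -0.79 ± 0.22 at ILMN_2750284 (adjusted p = 0.0493) and -0.81 ± 0.26 at ILMN_2604904 (adjusted p = 0.0911). All 3 probes are annotated to the same transcript. The interaction was -0.32 ± 0.26 at the brightest probe (adjusted p = 0.904), so the maternal diets were not shown to differ in this effect. The call at ILMN_2750284 held in 4 of 16 fits that each left out 1 array, with values of -0.95 to -0.63. With raw intensity as a covariate its value was -0.61 (adjusted p = 0.48), and that at the brightest probe was -0.29 (adjusted p = 0.716). Without the 4 dimmest arrays the values were -0.33 and -0.14, in that order. That fit leaves 1 high-fat array after mothers on 9%, the highest of its group at both probes, so it cannot test the group.

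**Figure D2:**
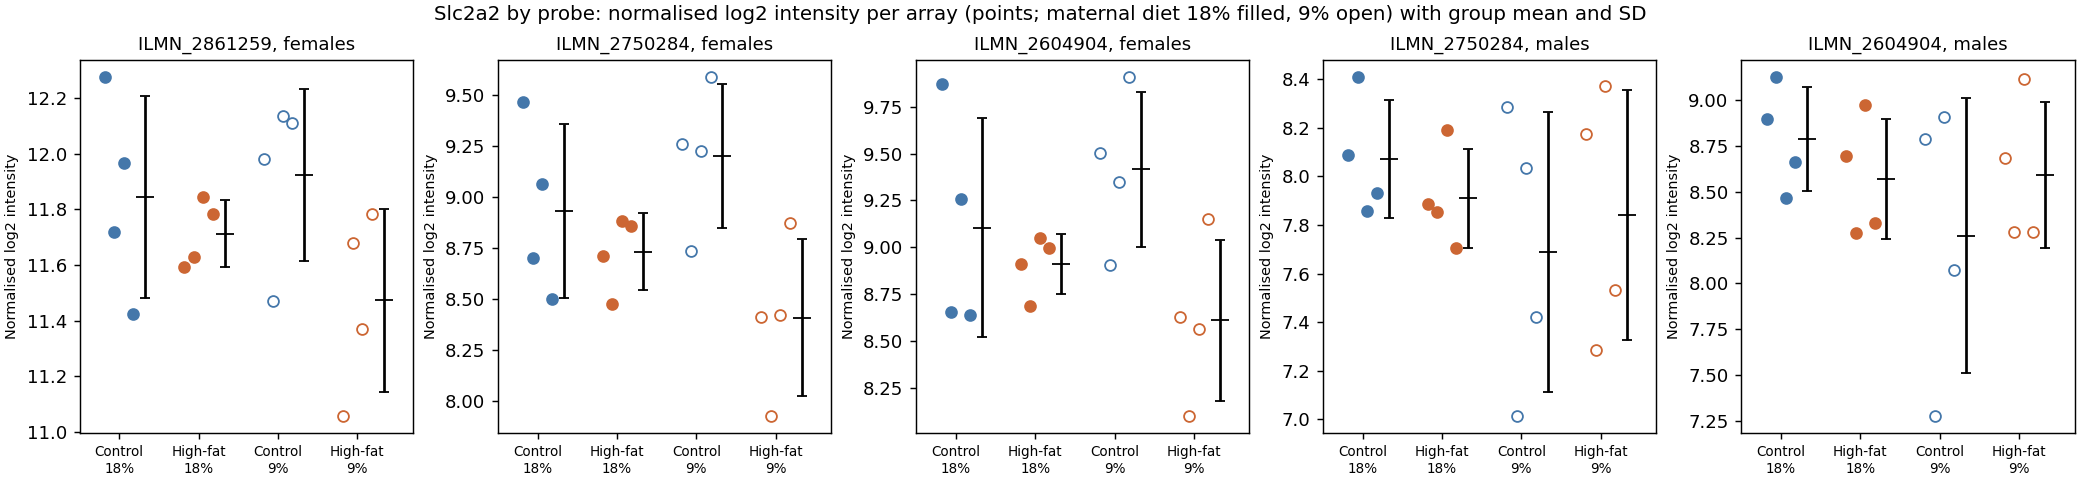
Slc2a2 by probe: normalised log2 intensity (vertical axes, each on its own scale) for 3 probes in females and 2 in males, by offspring and maternal diet, with arrays as points and the group mean and SD (n = 4) as bars. In females the high-fat group after mothers on 9% has the lowest mean at every probe; in males it does not.

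Gys2, the glycogen synthase of liver, had the widest spread of the 7 genes, with a pooled SD within groups of 0.69 log2 units. Its log2 intensities after mothers on 18% were 8.98, 8.38, 10.50 and 9.74 on the control diet and 9.29, 9.22, 9.58 and 9.42 on the high-fat diet. After mothers on 9% they were 8.81, 8.20, 9.34 and 9.76 on the control diet and 7.92, 8.35, 7.74 and 9.42 on the high-fat diet. On the high-fat diet 3 of 4 arrays after mothers on 9% lay below all 4 after mothers on 18%, and the remaining one lay among them.

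The maternal difference on the high-fat diet was -1.02 ± 0.42 (95% interval -1.90 to -0.14), at a ratio of 0.494, with an adjusted p of 0.479 in a comparison where 0% of features passed. Averaged over offspring diets it was -0.70 ± 0.30 (adjusted p = 0.427), and the high-fat effect after mothers on 9% was -0.67 ± 0.42 (adjusted p = 0.382). The 3 low arrays are also the 3 dimmest of that group. Leaving out the 4 dimmest arrays removed all 3 and left 1 high-fat array after mothers on 9%. The maternal difference on the high-fat diet was then 0.01, a value that rests on that array. With each array left out in turn it ran from -1.37 to -0.81. The part of raw intensity in it was not tested. Within groups Gys2 and raw intensity correlated at r = 0.29.

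Pygl, the phosphorylase that breaks glycogen down, differed little between the female groups. Its means were 12.90 ± 0.33 on the control diet and 12.81 ± 0.10 on the high-fat diet after mothers on 18% (SD, n = 4), and 12.93 ± 0.30 and 12.86 ± 0.04 after mothers on 9%. The averaged high-fat effect was -0.08 ± 0.10 (95% interval -0.30 to 0.14), and -0.12 ± 0.11 at its second probe. The control arrays ranged from 12.62 to 13.35 and the high-fat arrays from 12.71 to 12.95.

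In males 3 members could be tested, Akt2, Slc2a2 and Pygl, and 0 passed in any comparison. By limma 0.631% of 10297 features passed for the high-fat diet after mothers on 18%, 0.107% after mothers on 9% and 2.06% on average. Akt2, at ILMN_1218595, which the female annotation does not list for it, was 10.21, 10.19, 10.35 and 10.13 on the control diet and 9.97, 9.78, 10.06 and 9.89 on the high-fat diet after mothers on 9%. Every high-fat array lay below every control array there, as was so, in either direction, for 7.63% of all features. The effect was -0.29 ± 0.11 (adjusted p = 0.366). After mothers on 18% the values were 10.22, 9.97, 10.08 and 9.85 against 10.19, 9.96, 10.01 and 10.23, which overlap, with an effect of 0.07 ± 0.11. The difference between the maternal groups was -0.36 ± 0.16 (adjusted p = 0.69). These Akt2 values rest on 1 probe, with a mean of 10.07 log2 units. The other male Akt2 probe, ILMN_2655895, is annotated to the same transcript. Its mean was 4.34 and it was detected on 0 of 16 arrays, so it does not bear the signal out.

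Male Slc2a2 after mothers on 9% was 8.79, 7.28, 8.91 and 8.07 on the control diet and 8.69, 8.28, 9.12 and 8.28 on the high-fat diet. The control group held the lowest array of all 16. The effect was 0.33 ± 0.30 there and -0.22 ± 0.30 after mothers on 18%, and without its lowest control array the former was 0.00. The second detected probe, ILMN_2750284, gave 0.15 ± 0.27 and -0.16 ± 0.27 for these effects. The remaining probe, ILMN_2767739, was detected on 0 of 16 arrays. Pygl differed by -0.32 ± 0.17 after mothers on 18% (adjusted p = 0.375) and by -0.04 ± 0.17 after mothers on 9%. On the control diet, males of mothers on 9% differed from those of mothers on 18% by -0.53 ± 0.30 in Slc2a2 and -0.33 ± 0.17 in Pygl. At the second Slc2a2 probe the difference was -0.38 ± 0.27. In this comparison of mothers 0 of 10297 features passed, though 379 had an unadjusted p under 0.05.

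**Figure D3:**
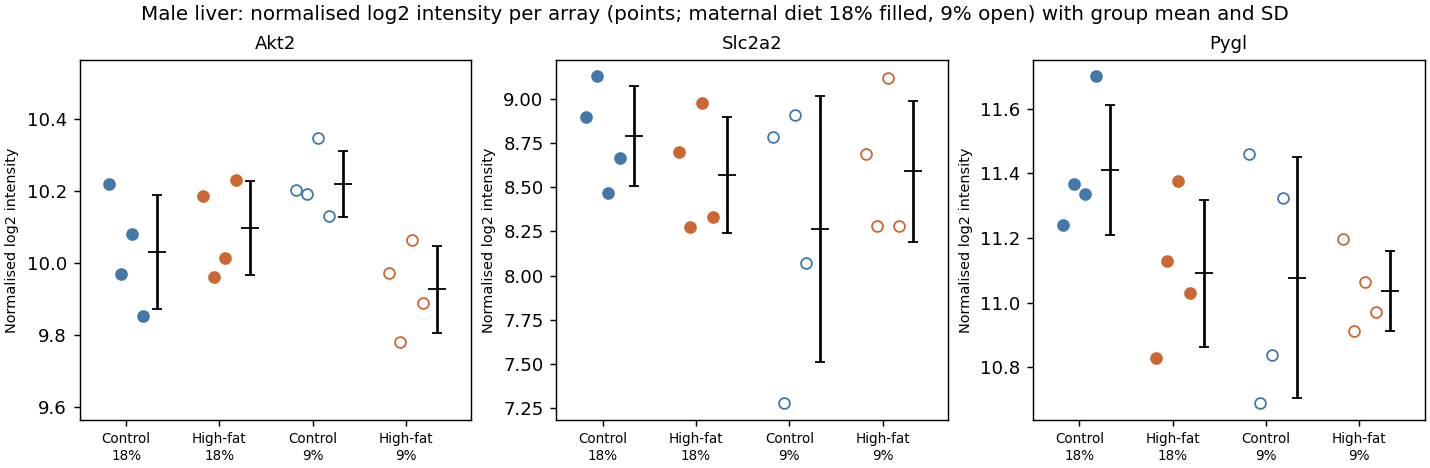
Normalised log2 intensity (vertical axes, each on its own scale) of the 3 members tested in males, by offspring and maternal diet. Points are arrays and the bars give the group mean and SD (n = 4). For Akt2 after mothers on 9% the high-fat arrays (9.78 to 10.06) lie below the control arrays (10.13 to 10.35).

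Between the sexes, the estimated high-fat effect on Slc2a2 after mothers on 9% was negative in females and positive in males. The male estimate of 0.33 had an interval of -0.30 to 0.96, so a difference in sign was not established. The male effect minus the female effect was 0.78 ± 0.35 at the tested probes, which are not the same probe in both sexes (adjusted p = 0.622 over 6941 genes). At the 2 probes that both arrays carry it was 0.94 ± 0.34 and 1.14 ± 0.40 (unadjusted p = 0.00973 and 0.00724, adjusted p = 0.42 for both by limma). The difference did not pass. With raw intensity as a covariate, the Slc2a2 difference at the tested probes was 0.50 ± 0.38 (adjusted p = 0.997). For Akt2 the difference without the covariate was -0.28 ± 0.17 (adjusted p = 0.76), also from different probes. Irs2 could not be compared, having no probe in the male annotation.

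**Figure D4:**
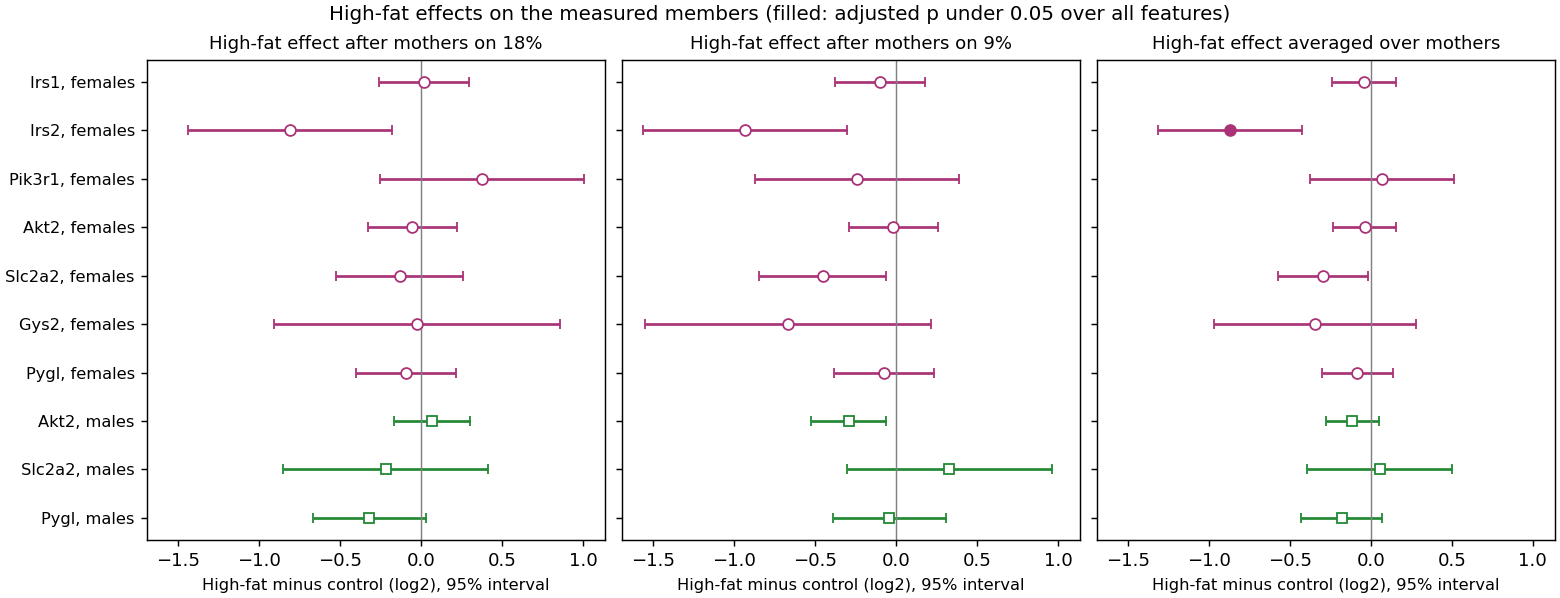
High-fat minus control difference in log2 intensity (horizontal axes) with its 95% interval for each tested member, after mothers on 18%, after mothers on 9% and averaged, in females (circles) and males (squares). A filled symbol marks an adjusted p under 0.05, which Irs2 in females reaches in the averaged comparison at -0.87.

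Other genes of the pathway were read from 5 lists holding 132 genes, of which 88 were tested in females and 82 in males. For the averaged high-fat effect in females 6 of 88 fell and 0 rose. That is 6.82% of the list genes, beside 4.15% of all features called lower and 8.78% called in either direction, and the difference was not tested. Their median change was -0.05, beside 0.00 over all features. For the high-fat diet after mothers on 9%, 4 of 88 fell (Eif4b by 0.74, Ppp2cb by 0.38, Ppp1cb by 0.88 and Ugp2 by 0.53) and 1 rose (Nhlrc1). These are 5.68% of the list genes, beside 4.35% of all features called and 1.91% called lower. Of 16 fits that each left out 1 array, 11 lost the call of Nhlrc1, 3 that of Eif4b, and 5 each those of Ppp1cb, Ppp2cb and Ugp2. All 5 calls were lost with raw intensity as a covariate (adjusted p of 0.325 or more). Without the 4 dimmest arrays Ppp2cb and Ugp2 stood at -0.38 and -0.50, Eif4b at -0.49, Ppp1cb at -0.36 and Nhlrc1 at 0.26. That fit leaves 1 high-fat array after mothers on 9%, so it cannot test these calls. After mothers on 18%, and in the maternal comparisons and the interaction, 0 of 88 passed. In males 0 of 82 passed in any comparison.

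Of 17 glycogen genes tested, 2 fell on average. Ppp1cb, a catalytic subunit of the phosphatase that activates glycogen synthase, went from 8.07 ± 0.30 on the control diet to 7.62 ± 0.05 on the high-fat diet after mothers on 18% (mean and SD, n = 4), and from 8.36 ± 0.24 to 7.48 ± 0.51 after mothers on 9%. It fell by 0.66 on average (adjusted p = 0.0114), and its second detected probe gave -0.66. Ugp2, which makes the UDP-glucose that glycogen synthase uses, fell from 10.54 ± 0.11 to 10.19 ± 0.15 after mothers on 18% and from 10.52 ± 0.22 to 9.99 ± 0.23 after mothers on 9% (averaged effect -0.44, adjusted p = 0.00799). The synthase and phosphorylase genes themselves, Gys2 and Pygl, did not pass. Nhlrc1, an E3 ubiquitin ligase known as malin that acts on glycogen proteins, was the gene that rose after mothers on 9%, by 0.68 (adjusted p = 0.0449), at a dim probe detected on 14 of 16 arrays.

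Of 25 further insulin signalling genes tested, 2 fell on average, Eif4b and Rps6. Eif4b, an initiation factor phosphorylated by S6 kinase, differed by -0.48 (adjusted p = 0.0151), and Rps6, the ribosomal protein that gives that kinase its name, by -0.25 (adjusted p = 0.0222). Of 18 genes that restrain insulin signalling 1 fell, Ppp2cb, a catalytic subunit of the phosphatase that dephosphorylates Akt, by 0.36 (adjusted p = 0.00471). Of 15 genes of glucose uptake and phosphorylation 1 fell, Hnf4a, a hepatocyte transcription factor, by 0.32 (adjusted p = 0.0313). Of 14 insulin-responsive hepatic genes, which are targets at the end of the pathway, 0 passed on average, with 7 above and 7 below the control level.

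All 6 of these averaged calls were lost with raw intensity as a covariate and without the 4 dimmest arrays. Under the covariate and without those arrays, in that order, Ppp2cb stood at -0.40 and -0.37 and Ugp2 at -0.46 and -0.43, close to their values with all arrays. Rps6 stood at -0.28 and -0.20, Eif4b at -0.41 and -0.34, Ppp1cb at -0.46 and -0.40, and Hnf4a at -0.19 and -0.11. Leaving out single arrays lost the Hnf4a call in 9 of 16 fits and the Rps6 call in 1, without high-fat replicate 3 after mothers on 9% (adjusted p = 0.0508); Eif4b, Ppp1cb, Ppp2cb and Ugp2 passed in 16 of 16. In the same comparison 3 of 18 hepatocyte markers were called lower, Hnf4a among them, and 0 higher, where 4.15% of all features were called lower. By sign alone 8 of the 18 stood higher, and the median change was -0.04. The summed normalised intensity of the 18 markers was 334685 to 342155 on the control diet and 317428 to 335969 on the high-fat diet after mothers on 18%. After mothers on 9% it was 324227 to 336083 against 313599 to 323132. Of 13 stellate cell markers 2 fell, while Adipoq, Fabp4, Lep, Plin1 and Retn of 6 adipocyte markers were detected on 0 arrays. The part of cell composition in the member values was not tested.

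**Figure D5:**
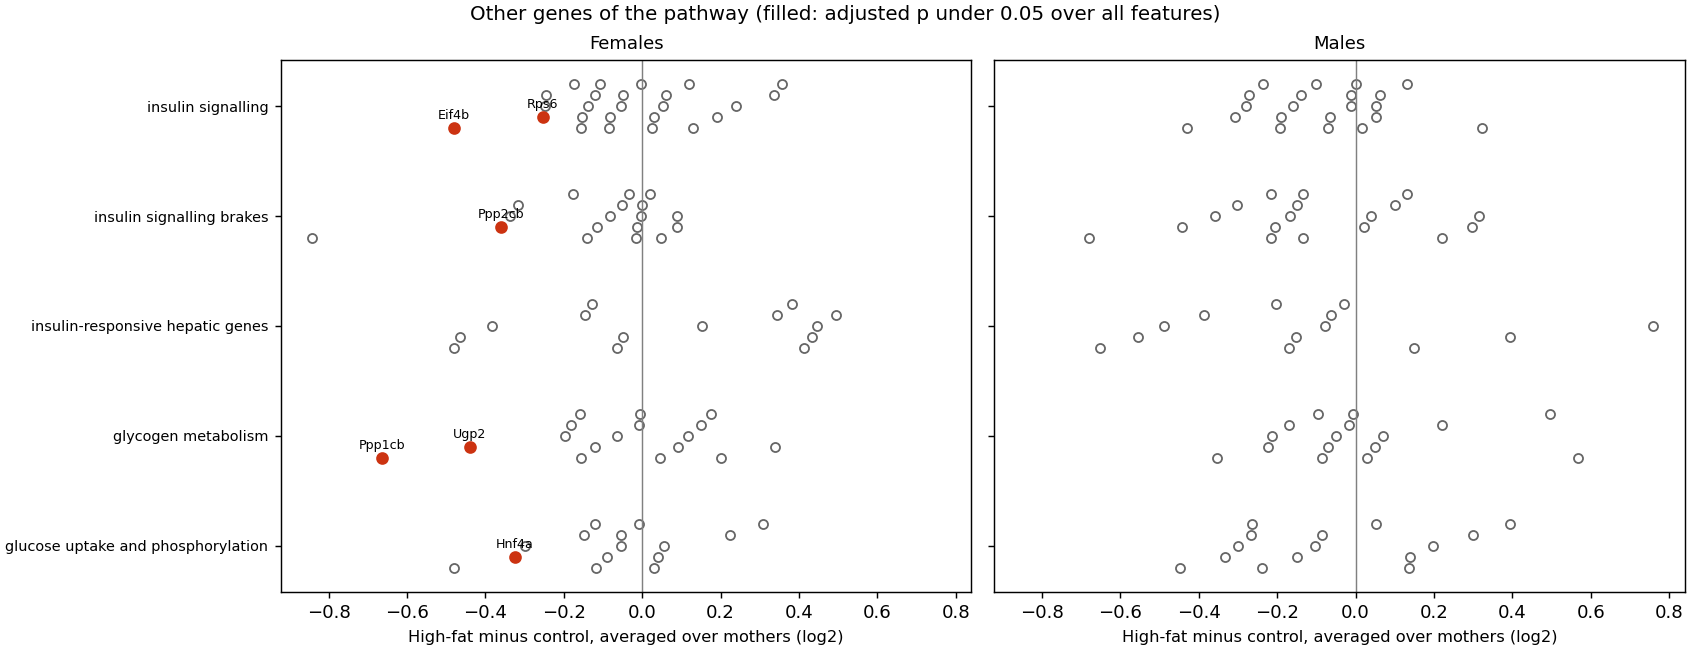
High-fat minus control difference in log2 intensity, averaged over mothers (horizontal axes), for each tested gene of the 5 pathway lists (rows) in females and males. Filled points are genes with an adjusted p under 0.05: 6 in females, all below 0, and 0 in males.

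Where no list gene passed, these 4 genes had the smallest p-value of their list in a comparison. Prkcz, an atypical protein kinase C downstream of phosphoinositide 3-kinase, stood 0.73 ± 0.18 higher in high-fat females of mothers on 18% (adjusted p = 0.132). Pklr, the liver pyruvate kinase, stood at -1.38 ± 0.33 in high-fat males of mothers on 18% (adjusted p = 0.0781). On the control diet, males of mothers on 9% against 18% differed in Pklr by -1.40 ± 0.33. This was far from the threshold (adjusted p = 0.9999), in a comparison where 0 of 10297 features passed. Both Pklr differences use the same group, control-diet males of mothers on 18%. On the high-fat diet, females of mothers on 9% against 18% differed by 1.77 ± 0.54 in Pdk4, a kinase that shuts pyruvate dehydrogenase (adjusted p = 0.405), and by -0.85 ± 0.22 in Stbd1, a glycogen-binding protein (adjusted p = 0.354). For these 4 genes no values were taken with raw intensity as a covariate or without the dimmest arrays.

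The maternal diet by itself moved no member past the threshold in either sex. In females 0 of 7 and in males 0 of 3 passed on the control diet, on the high-fat diet and on average, where 0% of all features passed by limma. At an unadjusted p under 0.05 there were 593 and 898 features in females, and 379 and 713 in males, on the control and the high-fat diet.

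Genes whose 16 female values ran most like those of Irs2 were Tmem38b (Pearson r = 0.81), Cyp2b9 (r = 0.81) and Lifr (r = 0.80), with 0.54, 0.67 and 0.55 once group means were removed. For Akt2 in males, at its 1 detected probe, they were Emp2 (r = 0.83), Id1 (r = 0.82) and Txndc5 (r = 0.81), with 0.68, 0.85 and 0.90 within groups. These are the highest values among the named genes tested in each sex, over arrays that share the diet groups. Among the members themselves, the strongest relation within groups was between Pik3r1 and Slc2a2 in females, with r = 0.84 and rho = 0.76 over 16 arrays. It was 1 of 34 relations computed and did not pass after adjustment (permutation test within groups, two-sided p = 0.00359 and 0.0101, adjusted p = 0.122 and 0.275). Without the 2 arrays farthest from the median of Pik3r1, r was 0.84.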

How the data were processed

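Liver RNA was measured on 32 Illumina bead arrays, 16 for each sex. The deposited tables used give an intensity and a detection p-value per probe in every array, per the file headers. The submitters' processing notes name BeadStudio without version or settings. A second deposited table, of quantile-normalised intensity, served as an alternative.

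Each sex was background corrected and quantile normalised with neqc of limma 3.58.1 under R 4.3.3 (negative controls inferred from the detection p, offset 16). A probe was kept where its detection p was below 0.05 on 4 or more of the 16 arrays, and each gene was tested at its brightest probe, unnamed probes as features of their own: 9446 features in females and 10297 in males. One limma fit per sex (lmFit and eBayes with an intensity trend) covered the 4 groups, two-sided, with Benjamini-Hochberg adjustment over all features and a threshold of 0.05. Errors of effects are SE. Between the sexes, the male minus the female effect was divided by the root of the sum of the squared SEs. The quotient was read against a t distribution with the summed degrees of freedom of both fits, two-sided. Adjustment was by Benjamini-Hochberg over the genes, or the probes, measured in both sexes. With 4 arrays a group, their number limits the precision. On simulated data, 100 genes were changed by 1 log2 unit and 100 by 0.5. For the high-fat effect after mothers on 9%, 88 and 47 were recovered in females, and 84 and 21 in males. For the interaction, 57 and 7 were recovered in females, and 36 and 3 in males. The simulated noise was independent between genes, so differences in raw intensity between arrays were not part of it.

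The members and lists were chosen with earlier results of these data known. All members were named; from each list up to 6 genes past the threshold by smallest p, or where 0 passed at most the gene with the smallest p. Of these last, 4 were named after their values were seen. Replicate numbers were not used as pairs in the main fit. With group means removed, same-number correlations ran from -0.20 to 0.32 in females and -0.16 to 0.49 in males. Their medians were 0.06 in both sexes, slightly above those between arrays of unlike number, -0.03 in females and -0.01 in males. Plots used matplotlib 3.10.9. Alternatives covered background correction, filter, probe choice, spread estimate, array weights, a raw intensity covariate, a replicate block and single arrays left out.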

Additional observations from a re-analysis of the deposited data

Results flagged for a closer look

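One group value stood apart from the rest of its group. Irs2 in high-fat females of mothers on 18% was 8.08 (log2) in replicate 3, against 8.84 to 8.97 in the other 3 arrays, a gap that makes up 0.847 of the group's range. It was the 1 flagged among 40 groups examined, and chance flags about 1 in 20. Without that array the averaged high-fat effect on Irs2 was -0.76, and it still passed.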

How the results depend on the processing

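The number of members past the threshold was followed in 18 comparisons, each member at its brightest probe, giving 402 counts under alternatives, of which 399 were unchanged. Only the averaged high-fat effect in females began with a member past the threshold. Unchanged counts in the other comparisons were 0 that stayed 0, so the 399 say little about how stable a call is. The Slc2a2 probe ILMN_2750284, which passed with every probe as a feature, is outside these counts. For the averaged high-fat effect in females the 1 call became 0 with raw intensity as a covariate and 0 without the 4 dimmest arrays, an alternative chosen with earlier results known, after which 1 high-fat array after mothers on 9% remained and was taken to vary like the other groups. Leaving out single arrays moved the count for females after mothers on 9% between 0 and 1: without high-fat replicate 1, Irs2 passed there (-1.17, adjusted p = 0.0473). Over all alternatives the averaged Irs2 effect ran from -0.99 to -0.75, with adjusted p of 0.0102 to 0.227. Counts over all features moved far more: for the averaged effect in females, 829 features became 11 with the covariate, 12 without the dimmest arrays, and 469 to 959 without single arrays; after mothers on 9%, 411 became 3, 0, and 84 to 611, and with only the groups compared all 5 list calls were lost. In males 65 features after mothers on 18% became 25 with the covariate and 10 to 102 without single arrays. The replicate block left 1 member past the threshold for the averaged effect in females (Irs2 -0.87), and changed no other member's call. Of 2224 values of single genes, 2151 kept their side of the threshold (99 with another sign and past it neither way). Of the rest, 72 no longer passed, 1 newly passed and 0 reversed. Most of the 2224 were values of members in comparisons where they had not passed at first, so no call could be lost there. All 72 losses fell on the few calls of the main fit. The chip was not run as a block, since the headers used here give none, and the comparison of the sexes over genes whose tested probe is the same gave no member value, as 0 of 3 members share it; the Slc2a2 values at the shared probes come from a comparison added later. Probes near background (Irs1, Akt2 and Nhlrc1 in females) limit what changes could be seen. The causes were not tested.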
